A study of Mus musculus with 6 samples.

Results

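To determine how transcripts of the proteasome vary over the clock cycle of an L-cell line, probes for proteasome subunits were compared between 4 h and 16 h after synchronization of mGLUTag cells. The members were all probes whose symbol carried the letters PSM, a letter from A to G and a number, which gave 83 probes for 47 genes of the 45281 probes and 28902 gene symbols on the array. One of the 47, Psmc3ip, shares the symbol pattern only and encodes a recombination factor, not a proteasome subunit. The mGLUTag line is an immortalized model, of mouse origin, for L-cells, the gut endocrine cells that release glucagon-like peptide-1. All samples had been kept in low serum, exposed to forskolin, which raises cAMP, and returned to growth medium. The only difference that the labels and methods give is the time of RNA collection: 4 h (n = 3), the peak of the clock gene Arntl, and 16 h (n = 3), its trough. Slide and scan date are not known. There was no unsynchronized group, and the study does not say whether the 3 samples of a time point were independent cultures, so that all p-values measure the spread between these samples. Each sample was hybridized to 1 array, and 1 line cannot represent all L-cells.

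The proteasome degrades proteins that are tagged with ubiquitin. Its core particle is a barrel of stacked rings, in which the outer rings are built of alpha subunits and the inner rings of beta subunits, and only Psmb5, Psmb6 and Psmb7 of the constitutive beta subunits carry protease activity. Immune cells, and other cells exposed to interferon, replace these with Psmb8, Psmb9 and Psmb10, which changes the peptides made for antigen presentation. The regulatory particle caps the barrel, with a base of ATPases (the Psmc genes) that unfold substrates and non-ATPase subunits (most Psmd genes) that receive and strip ubiquitin. Alternative caps (Psme genes) open the barrel without ATP, Psmf1 inhibits it in vitro, and chaperones including Psmd5, Psmd9, Psmd10 and the Psmg genes help it assemble. In endocrine cells, as in others, this machinery removes misfolded and short-lived proteins, clock repressors among them.

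Promoter sequences were taken from RefSeq (GRCm38.p6) for 39 of the 47 genes, with 300 bases around each transcription start, and those of 6 genes are shown: the catalytic subunits Psmb5 and Psmb6 and the immune subunits Psmb8 and Psmb9 that take their places, and Psme3 and Psmg3, whose time points did not overlap after normalization, in opposite directions. Psma8, Psmb1, Psmb2, Psmb7, Psmc3, Psmd3, Psmd7 and Psmg2 had no entry. They are printed 5′ to 3′ in the direction of transcription, with letters that match a searched motif on either strand in capitals. The intervals are Psmb5 chr14:54617946-54618245, minus strand; Psmb6 chr11:70525107-70525406, plus strand; Psmb8 chr17:34197945-34198244, plus strand; Psmb9 chr17:34187281-34187580, minus strand; Psme3 chr11:101315963-101316262, plus strand and Psmg3 chr5:139826845-139827144, minus strand.
Psmb5: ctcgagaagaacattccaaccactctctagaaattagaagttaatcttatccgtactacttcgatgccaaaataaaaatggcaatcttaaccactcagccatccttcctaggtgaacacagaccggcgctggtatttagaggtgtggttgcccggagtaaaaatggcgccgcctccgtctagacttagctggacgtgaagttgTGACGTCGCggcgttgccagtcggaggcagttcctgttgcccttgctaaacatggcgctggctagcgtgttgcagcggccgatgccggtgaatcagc
Psmb6: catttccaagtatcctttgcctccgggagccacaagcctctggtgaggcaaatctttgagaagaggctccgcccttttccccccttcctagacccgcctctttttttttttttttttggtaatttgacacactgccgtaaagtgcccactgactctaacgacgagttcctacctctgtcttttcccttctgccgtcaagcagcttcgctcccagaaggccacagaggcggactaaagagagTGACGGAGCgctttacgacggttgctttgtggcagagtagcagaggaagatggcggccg
Psmb8: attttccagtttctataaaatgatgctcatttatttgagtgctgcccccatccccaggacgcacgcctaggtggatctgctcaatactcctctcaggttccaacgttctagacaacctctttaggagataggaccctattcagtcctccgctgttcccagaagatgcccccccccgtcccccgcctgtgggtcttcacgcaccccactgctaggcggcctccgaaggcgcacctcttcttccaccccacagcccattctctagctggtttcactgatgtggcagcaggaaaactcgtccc
Psmb9: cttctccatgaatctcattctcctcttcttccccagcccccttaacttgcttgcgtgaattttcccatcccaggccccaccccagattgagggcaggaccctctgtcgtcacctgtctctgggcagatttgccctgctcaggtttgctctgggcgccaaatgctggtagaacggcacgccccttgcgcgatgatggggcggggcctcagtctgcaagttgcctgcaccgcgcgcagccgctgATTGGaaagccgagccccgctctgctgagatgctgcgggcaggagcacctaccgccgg
Psme3: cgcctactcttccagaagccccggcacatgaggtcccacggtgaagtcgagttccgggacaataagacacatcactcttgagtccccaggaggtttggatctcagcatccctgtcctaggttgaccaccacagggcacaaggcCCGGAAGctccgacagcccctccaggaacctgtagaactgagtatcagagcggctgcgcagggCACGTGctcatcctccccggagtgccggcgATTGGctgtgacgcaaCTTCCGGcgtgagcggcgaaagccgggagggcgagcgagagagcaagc
Psmg3: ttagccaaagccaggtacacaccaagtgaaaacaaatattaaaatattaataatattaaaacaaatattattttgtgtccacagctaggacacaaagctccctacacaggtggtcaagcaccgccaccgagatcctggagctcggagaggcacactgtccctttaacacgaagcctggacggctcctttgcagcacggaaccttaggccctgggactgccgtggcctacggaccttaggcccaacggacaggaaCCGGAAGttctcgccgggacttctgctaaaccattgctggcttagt

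The capitals in Psmb5 (TGACGTCGC) and Psmb6 (TGACGGAGC) match TGACNNNGC, the letters of the antioxidant response element. Psmb8 held none of the searched letters, and Psmb9 held ATTGG, the reverse complement of CCAAT. Psme3 held ATTGG too, with CACGTG, the letters of the E-box that clock factors bind, and the ETS letters CCGGAAG both as such and in reverse complement. Psmg3 held CCGGAAG once. All motifs, among them the cAMP response element TGACGTCA, were searched on both strands, and TGACNNNGC and TGACGTCA could each share their first bases with the end of CACGTG. TGACNNNGC occurred in 6 of the 39 member genes (15.4%), against 14% of all 27025 genes with a promoter and 16.9% of the 7912 genes with a detected probe. CACGTG occurred in 4 members (10.3%, against 8.09% of all genes and 11.8% of detected genes), and CCAAT in 15 (38.5%, against 41.1% and 43.8%). The letters of the interferon-stimulated element (GAAA, any 2 bases, then GAAA again) occurred in 4 members (10.3%, against 3.99% and 3.41%), namely Psmb3, Psmd4, Psmd9 and Psme1. Of these, Psme1 is an interferon-inducible activator subunit, and no immune subunit of the core particle was among them. TGACGTCA occurred in 0 of the 39, against 2.03% and 3.88%.

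CCGGAAG was held by 14 member genes (35.9%, against 9.93% of all genes and 21.3% of detected genes). It was found in 3 of 5 ATPase and 6 of 9 non-ATPase genes of the regulatory particle, in 1 of 7 alpha genes, in 0 of 4 constitutive beta genes and in 0 of 4 immune or tissue-specific genes with an entry. The others were 2 of 5 activator and inhibitor genes, 1 of 4 assembly chaperones and Psmc3ip, which is not a proteasome gene. These shares are descriptions of letters in a short window and were not tested. On the chromosomes, Psmb9 and Psmb8 were neighbours with only the peptide transporter gene Tap1 between them, Psme1 and Psme2 had only Emc9 between them, and Psmb5 lay next to the thymic subunit gene Psmb11.

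Proteasome probes were mostly well above background. Each array was given a noise limit from its own values below 0 (9.2 to 14 intensity units), and a probe above it on 3 or more arrays was called detected. Of the 83 member probes, 69 were detected and 67 lay above the limit on all 6 arrays (80.7%, against 33.0% of all probes), while 13 lay above it on none. By gene, 41 of 47 were detected. Between 67 and 70 member probes per array lay above the limit, with the fewest on 16 h replicate 2 and the most on 4 h replicate 1, so that no array lacked the family.

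Psma1, an alpha subunit of every barrel and a defining gene of the family, was not measured by its single probe (ILMN_2777591), which read -8, -7.9 and 2.7 at 4 h against 1.7, -2.7 and 0.5 at 16 h and lay above the limit on 0 arrays. The single probes of Psma3 and Psma6 and both probes of Psmd3 were likewise at the noise level, although these genes encode constitutive subunits. The others, Psma8 of the testis and Psmb11 of the thymic cortex, are tissue-specific. No change is given for these 6 genes. The other 2 defining genes, Psmb5 and Psmd1, were detected on all 6 arrays. Of 6 leukocyte markers, a further source of immune subunits in a mixed culture, 0 were detected, and their summed intensity per array was between -0.2 and 14.7, with Ptprc (CD45) at the noise level. Of 5 fibroblast markers, Col1a1 was detected, with a summed intensity of 14 to 56.4 per array for the whole list, against 20880 to 38583 for 7 L-cell markers, of which 6 were detected (the prohormone convertase gene Pcsk1 was above the limit on 1 array). In a population of cells, a smaller share of cells and less transcript per cell cannot be told apart.

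**Figure D1:**
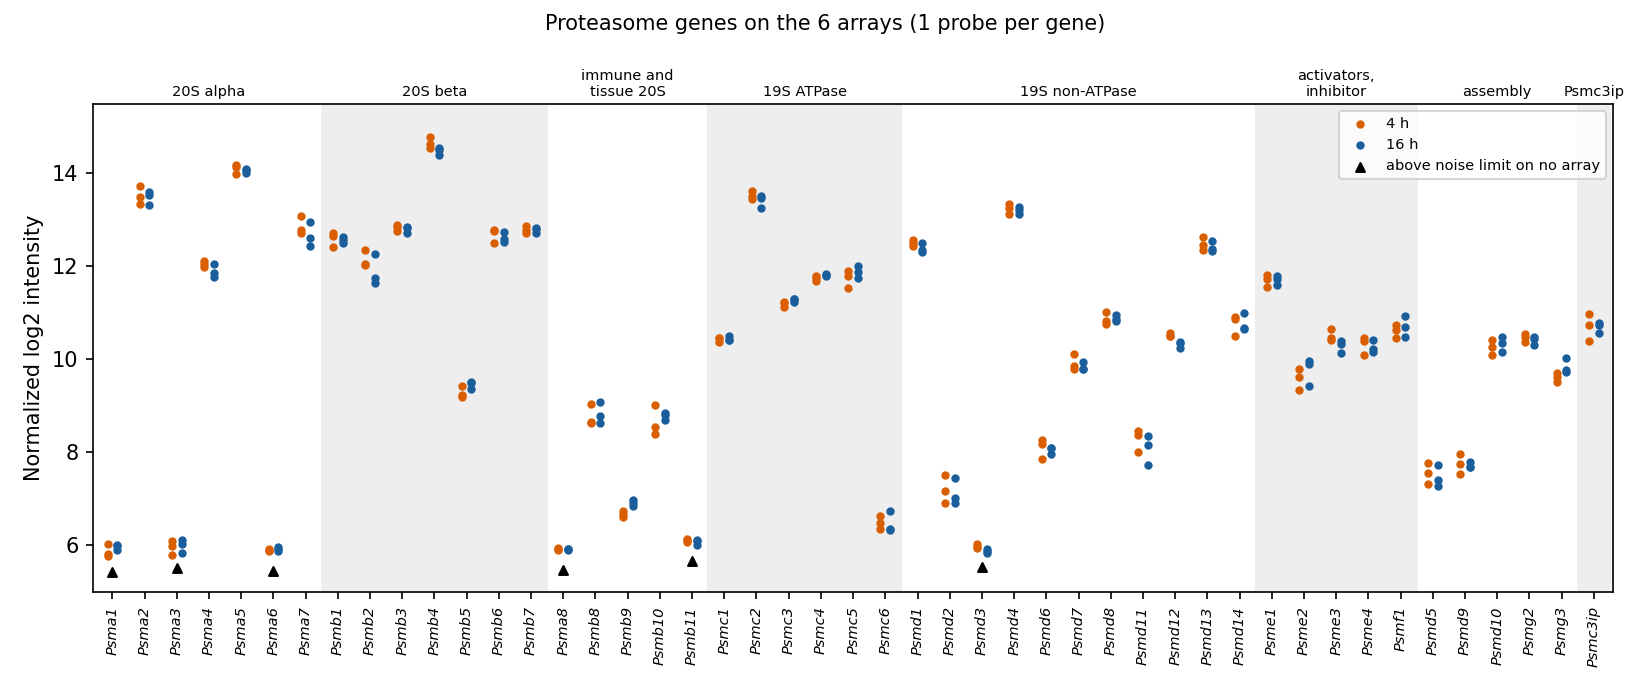
Normalized log2 intensity (vertical axis) of the 47 member genes at 1 probe per gene, with 1 point per array (orange, 4 h; blue, 16 h), grouped by class; black triangles mark the 6 genes that no array had above its noise limit. The 3 detected immune genes lie between 6.79 and 8.79 on average, and the 2 colours lie close together in every class.

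Deposited intensities of the detected genes, each taken at its probe with the highest normalized level (representative probe), spanned 4033 to 17402 units in the alpha ring (4 genes), 590 to 24511 in the constitutive beta ring (7 genes), 26.9 to 11329 in the ATPase base (6 genes) and 85.2 to 9464 in the non-ATPase class (10 genes). The 3 detected immune subunits lay between 46.2 and 384 units, the 5 activators and inhibitor between 749 and 3266, and the 5 assembly chaperones between 124 and 1331. These are the ranges of the probes, not an order of transcript levels, because probes of the same gene differed too. The 2 probes of the ATPase Psmc2 averaged 11329 and 386 units, and those of the immune subunit Psmb8 averaged 384 and 18.1, all of them above the limit on 6 arrays. Psma5, an alpha subunit, had a bright probe at 17402 units beside one near the noise level, above the limit on 3 arrays. Levels of the immune and constitutive subunits were therefore not ranked.

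No proteasome transcript passed the test between 4 h and 16 h, and the median size of a change among the 69 detected member probes (0.070) was below the median standard error (0.104). To compare the time points, intensities were background-corrected, quantile normalized and tested with limma for every probe, and changes are log2 values, 4 h minus 16 h. Across all 45281 probes, 4 were called at an adjusted p under 0.05 (0.00883%), and 0 of the 83 member probes were. Without adjustment, 6 member probes had a p under 0.05 (7.23%), against 5.42% of all probes and 10.3% of detected probes. Of the 6 members, 4 were higher at 4 h and 2 lower, where 2.82% and 2.6% of all probes were. The 6 were detected, so that their share of the 69 detected members was 8.7%. The 3 values of one time point lay entirely above or below those of the other in 11 of the 83 member probes (13.3%, against 10.9% of all probes), or in 9 of 69 detected members (13%, against 11.4%). The 4 h values were above in 7 of the 11 and below in 4, where 5.54% and 5.38% of all probes were. Both shares were near the background. For 1 probe, the smallest two-sided p of an exact permutation test at this sample number is 0.1, which every non-overlapping probe reaches. The 69 detected member probes had a median change of 0.034 (quartiles -0.027 and 0.12), against 0.0044 for all detected probes, and their changes ran from -0.24 to 0.32. The median 95% interval reached 0.24 to either side of a change, so that differences of that size could not be seen in a typical member.

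The normalization bears on every one of these values. Before normalization, the 4 h arrays were brighter, and the median detected probe had a log2 ratio of mean deposited intensities of 0.55 (4 h over 16 h). The 69 detected member probes had a median ratio of 0.52, near the shared value. Without normalization between arrays, 22 member probes were called higher at 4 h and 0 lower. This was 31.9% of detected members against 13.2% of all detected probes, or 26.5% of the 83 members against 5.1% of all probes. With median scaling, 7 were called higher and 0 lower (10.1% of detected members against 4.79%, or 8.43% of the 83 against 1.84%). These scalings left a shift of 0.36 and 0.27, respectively, in the median detected probe, and relative to it the median change of the member genes was 0.11 under both. On the deposited scale, however, the median ratio of the member genes was 0.49, below the shared 0.55. With linear scaling of the arrays their median change was also below that of the median detected probe. The offset shrinks changes of dim probes, and its part in the 0.11 was not tested.

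By class, the medians ran from -0.13 for the immune genes to 0.10 for the alpha ring, and differences between classes were not tested. All 4 detected alpha genes had changes above 0 (median 0.10, range 0.032 to 0.19), as had 6 of 7 constitutive beta genes (median 0.043) and 8 of 10 non-ATPase genes (median 0.069, range -0.023 to 0.20). Among the 6 ATPases, 2 were above 0 and 4 below (median -0.038, range -0.13 to 0.11). All 3 immune genes were below 0 (median -0.13, range -0.24 to -0.063), but without normalization, and with median scaling for Psmb8 and Psmb10, their changes were above 0. Relative to the shift of those scalings, Psmb9 was at -0.30, Psmb10 at 0.0013 and Psmb8 at 0.059. On the deposited scale their log2 ratios were 0.039, 0.41 and 0.49, all below the shared 0.55. The activators and inhibitor were split (2 above, 3 below), as were the assembly chaperones (3 above, 2 below). With linear scaling of the arrays, the medians of the alpha and beta classes turned to -0.016 and -0.055, and that of the activators and inhibitor, at -0.0085 with quantile normalization, was -0.073. Over all 41 detected genes, Psmc3ip included, 26 were above 0 and 15 below, with a median of 0.034 (-0.040 with linear scaling). In each class, 0 genes were called.

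**Figure D2:**
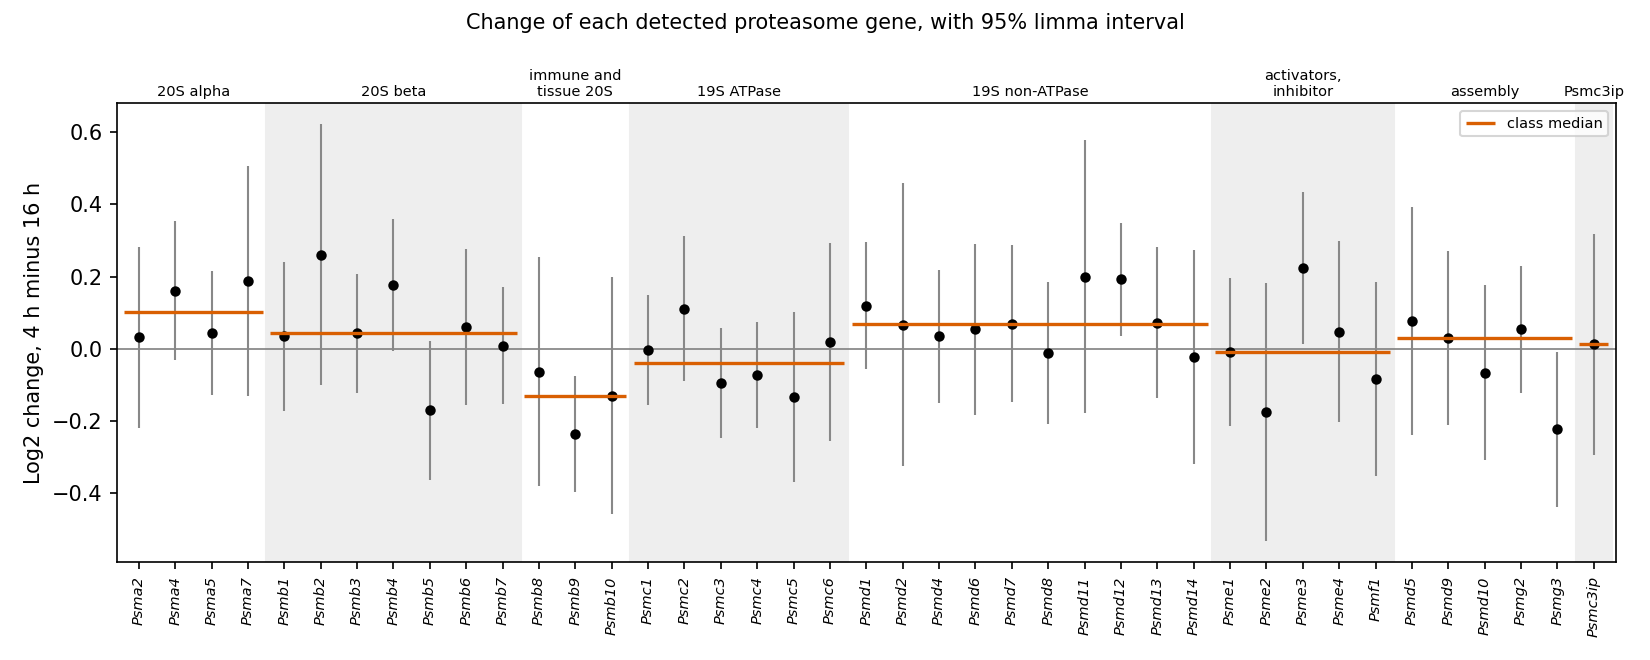
Log2 change (4 h minus 16 h, normalized) of each detected member gene at its representative probe (black points with 95% intervals), grouped by class, with the class medians in orange. Medians run from -0.13 for the immune genes to 0.10 for the alpha ring, and no gene passed the adjusted threshold.

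The structural alpha subunits gate the entry to the barrel. Psma2 (ILMN_2641238) had normalized log2 values of 13.49, 13.72 and 13.34 at 4 h against 13.32, 13.60 and 13.53 at 16 h, with overlapping time points and a change of 0.032 (SE 0.111, 95% interval -0.22 to 0.28, adjusted p = 0.989). Psma7 had deposited intensities of 10944, 7356 and 7449.8 at 4 h against 7116, 4873 and 4759 at 16 h, with the first sample of each time point above the others of that time point. Its change was 0.19 (SE 0.141, 95% interval -0.13 to 0.51, adjusted p = 0.953), and its other probe (ILMN_2793488) gave 0.044. The remaining 2 detected genes, Psma4 and Psma5, had changes of 0.16 and 0.043.

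Among the non-catalytic beta subunits, Psmb4 (ILMN_2671124) read 29666, 29018 and 26975 at 4 h against 20950, 21071 and 19387 at 16 h. After normalization its time points did not overlap, with values of 14.56, 14.78 and 14.63 at 4 h against 14.50, 14.54 and 14.40 at 16 h, and the change was 0.18 (SE 0.0806, 95% interval -0.0061 to 0.36, adjusted p = 0.919). Psmb2 had the widest change of the class, 0.26 (SE 0.159, 95% interval -0.10 to 0.62, adjusted p = 0.942), and its normalized values were 12.35, 12.02 and 12.04 at 4 h against 12.26, 11.63 and 11.74 at 16 h. The first sample of each time point was the highest, and the values at 16 h spread more than the difference between time points. A second detected probe of Psmb2 gave 0.27 (SE 0.192). Psmb1 and Psmb3 lay at 0.034 and 0.043.

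The catalytic pairs, in which an immune subunit takes the place of a constitutive one, were Psmb5 with Psmb8, Psmb6 with Psmb9 and Psmb7 with Psmb10. Psmb5, the chymotrypsin-like subunit, had deposited intensities of 687, 644 and 649.7 at 4 h against 552, 532 and 475 at 16 h, or 660.3 ± 23.4 at 4 h against 519.6 ± 40 at 16 h, SD, n = 3 each. On this scale each 4 h sample was above each 16 h sample, by a log2 ratio of 0.35, which is below the shared 0.55. Normalized values were 9.22, 9.43 and 9.19 at 4 h against 9.49, 9.36 and 9.51 at 16 h, with 1 sample at 4 h inside the range at 16 h, and the change was -0.17 (SE 0.0849, 95% interval -0.36 to 0.022, adjusted p = 0.920). Psmb8, its counterpart encoded in the major histocompatibility complex, read 436, 332 and 576 at 4 h against 402, 294 and 264 at 16 h, and the third sample at 4 h was the highest. Its time points overlapped, with a change of -0.063 (SE 0.14, 95% interval -0.38 to 0.25, adjusted p = 0.983), and its dimmer probe gave -0.14 (SE 0.0752). So neither member of the pair passed the test, and with quantile normalization their changes had the same sign. Relative to the shift of the median detected probe without normalization, Psmb5 was at -0.035 and Psmb8 at 0.059. Their deposited log2 ratios, 0.35 and 0.49, were both below the shared 0.55. Leaving out 1 array moved the change of Psmb8 between -0.20 and 0.064.

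Psmb6, the caspase-like subunit, read 7577 ± 1225 at 4 h against 5285 ± 62.4 at 16 h, SD, n = 3 each, and the normalized change was 0.06 (SE 0.0949, 95% interval -0.15 to 0.28, adjusted p = 0.978), with overlapping values of 12.78, 12.76 and 12.51 at 4 h against 12.52, 12.60 and 12.74 at 16 h. Psmb9, its counterpart, read 50.5, 41.3 and 48.5 at 4 h against 50.2, 43.6 and 42.8 at 16 h. On the deposited scale the time points overlapped and had nearly equal means (46.8 ± 4.84 at 4 h against 45.5 ± 4.06 at 16 h, SD, n = 3 each), for a log2 ratio of 0.039 where the median detected probe had 0.55. After normalization each 4 h sample lay below each 16 h sample, at 6.61, 6.73 and 6.67 at 4 h against 6.91, 6.84 and 6.98 at 16 h, and the change was -0.24 (SE 0.0705, 95% interval -0.40 to -0.076, adjusted p = 0.688). Its unadjusted p was 0.00868. Leaving out 1 array at a time left the change between -0.27 and -0.20. Without normalization it was 0.058, or -0.30 relative to the shift of the median detected probe.

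Psmb7, the trypsin-like subunit, was measured by 4 probes. The brightest, ILMN_1240550, read 8628, 7355 and 8161 at 4 h against 6012, 6232 and 5541 at 16 h and had a change of 0.009 (SE 0.0711, 95% interval -0.15 to 0.17, adjusted p = 0.997). A second probe, ILMN_1221340, read 7267, 6046 and 7472 at 4 h against 4902, 4155 and 3374 at 16 h, with each 4 h sample above each 16 h sample after normalization too and a change of 0.31 (SE 0.103, 95% interval 0.074 to 0.54, adjusted p = 0.772). The last 2 probes gave -0.039 and 0.13, so that the probes of this gene did not share a direction. Psmb10, the counterpart, read 401, 471 and 346 at 4 h against 299.5, 338 and 277 at 16 h. Its time points overlapped after normalization, at 8.54, 9.02 and 8.39 at 4 h against 8.70, 8.80 and 8.84 at 16 h, with a change of -0.13 (SE 0.145, 95% interval -0.46 to 0.20, adjusted p = 0.966), and a second probe gave -0.06.

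**Figure D3:**
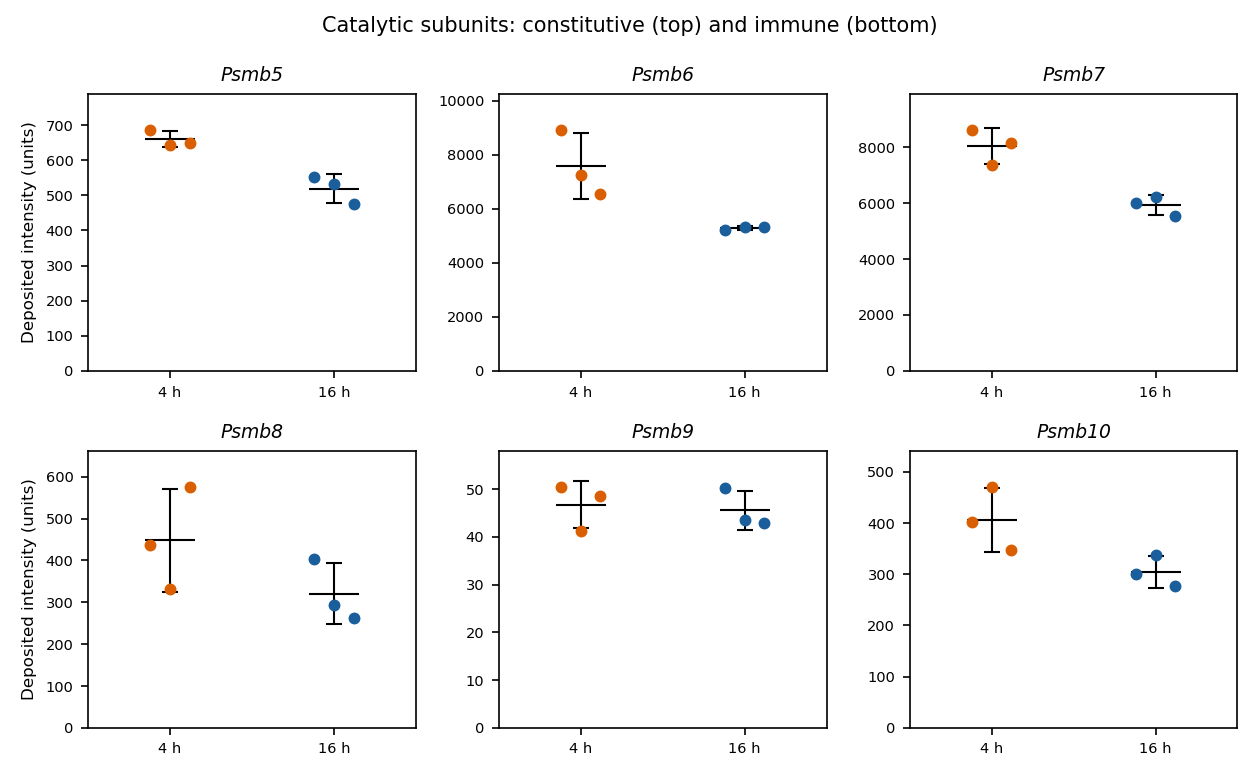
Deposited intensity (vertical axis from 0, intensity units, not normalized between arrays) of the 3 constitutive catalytic subunits (top) and their immune counterparts (bottom) at 4 h and 16 h, with 1 point per array and the mean ± SD in black. On this scale the 4 h samples of Psmb5, Psmb6, Psmb7 and Psmb10 lie above the 16 h samples, while those of Psmb8 and Psmb9 overlap with them.

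In the ATPase base of the regulatory particle, Psmc2 read 14123, 12315 and 13323 at 4 h against 8963, 10169 and 9081 at 16 h, with a normalized change of 0.11 (SE 0.0883, 95% interval -0.089 to 0.31, adjusted p = 0.957). Psmc5, another of the 6 ATPases, read 3653, 3727 and 4280.2 at 4 h against 2959, 3556 and 2823 at 16 h and had a change of -0.13 (SE 0.104, 95% interval -0.37 to 0.10, adjusted p = 0.956). Its 16 h samples spread from 2823 to 3556 units and overlapped with the 4 h samples after normalization, and the second probe gave -0.026. After normalization the 4 h samples of Psmc3 and Psmc4 were all below the 16 h samples, by small changes of -0.094 (SE 0.0672, adjusted p = 0.953) and -0.073 (SE 0.0649, adjusted p = 0.959). On the deposited scale they were all above, at 2744, 2417 and 2789.6 at 4 h against 2135, 2177 and 1761 at 16 h for Psmc3 and 4373, 3460.4 and 3879 at 4 h against 3113, 3124 and 2653 at 16 h for Psmc4. A second probe of Psmc4 gave -0.027, with overlapping time points. Psmc1 and Psmc6 lay at -0.0032 and 0.019.

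Among the non-ATPase subunits, Psmd1, a large scaffold of the base, read 7761, 6070.3 and 6215 at 4 h against 4438, 5030.4 and 3986 at 16 h, or 6682 ± 937 at 4 h against 4485 ± 524 at 16 h, SD, n = 3 each. Its normalized values were 12.57, 12.50 and 12.44 at 4 h against 12.30, 12.51 and 12.35 at 16 h, and the change was 0.12 (SE 0.0777, 95% interval -0.057 to 0.30, adjusted p = 0.946). Its other probes gave -0.016 and 0.003. Psmd12, a lid subunit, had normalized values of 10.57, 10.50 and 10.49 at 4 h against 10.38, 10.25 and 10.36 at 16 h, without overlap, and a change of 0.19 (SE 0.0689, 95% interval 0.036 to 0.35, adjusted p = 0.819), although a second probe of the gene gave -0.042 (SE 0.0894). Psmd11, a lid subunit known to raise proteasome assembly in stem cells, read 375, 192 and 345 at 4 h against 128, 232 and 155 at 16 h, the change was 0.20 (SE 0.167, 95% interval -0.18 to 0.58, adjusted p = 0.959), and its second detected probe gave -0.13. Leaving out 1 array moved the change of the first probe between 0.021 and 0.34. Psmd14, the deubiquitinase of the lid, had a change of -0.023 (SE 0.131, 95% interval -0.32 to 0.27, adjusted p = 0.996) from intensities of 2369, 1873 and 1674 at 4 h against 1320.2, 1415 and 1472 at 16 h, and a second probe gave 0.23 (SE 0.158). In these 4 genes the sign of the change depended on the probe. Psmd4, a ubiquitin receptor, had a change of 0.035, and the remaining 5 detected genes of the class lay between -0.012 and 0.073.

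The activators differed among themselves. Psme1 and Psme2, the interferon-inducible subunits of a shared ring, had changes of -0.0085 (SE 0.0903, 95% interval -0.21 to 0.20, adjusted p = 0.998) and -0.17 (SE 0.158, 95% interval -0.53 to 0.18, adjusted p = 0.959). Psme1 read 4172, 3788 and 3401 at 4 h against 2633, 2948 and 2653 at 16 h, and Psme2 read 1036, 740 and 728 at 4 h against 790.1, 554 and 645 at 16 h, with the first sample of each time point the highest for Psme2. Psme3, which forms the nuclear ring of the same family, had normalized values of 10.46, 10.42 and 10.64 at 4 h against 10.34, 10.38 and 10.13 at 16 h, so that the 4 h samples were all higher, and a change of 0.22 (SE 0.0931, 95% interval 0.013 to 0.43, adjusted p = 0.900). Its mean deposited intensities were 1641 ± 256 at 4 h against 983 ± 189 at 16 h, SD, n = 3 each. Psme4, the activator of a separate family, had a change of 0.047 (SE 0.111, 95% interval -0.20 to 0.30, adjusted p = 0.983) from intensities of 1592, 1076 and 1634 at 4 h against 960.5, 1166 and 779 at 16 h.

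Psmf1, the inhibitor, gave the widest disagreement between probes. Its bright probe ILMN_1233929 read 1680.5, 1721 and 1868 at 4 h against 1159, 1655 and 1177 at 16 h, for a change of -0.085 (SE 0.119, 95% interval -0.35 to 0.18, adjusted p = 0.974). Its dim probe ILMN_3094023 read 65.2, 52.5 and 92.1 at 4 h against 29.9, 24.3 and 26.1 at 16 h, without overlap, for a change of 0.32 (SE 0.0905, 95% interval 0.11 to 0.52, adjusted p = 0.655), the highest change among the 69 detected member probes. Its unadjusted p of 0.00679 was also the smallest of these. Relative to the shift of the median detected probe without normalization, the bright probe was at 0.049 and the dim probe at 0.25. On the deposited scale their log2 ratios were 0.40 and 1.39, against the shared 0.55. Leaving out 1 array moved the change of the bright probe between -0.19 and 0.028. The direction for this gene cannot be given. Among the chaperones, Psmg3 had normalized values of 9.52, 9.70 and 9.63 at 4 h against 9.72, 9.76 and 10.03 at 16 h, so that the 4 h samples were all lower, and a change of -0.22 (SE 0.0949, 95% interval -0.44 to -0.0076, adjusted p = 0.912). On the deposited scale its 4 h samples were all higher, at 853, 784 and 909.8 at 4 h against 669.9, 724 and 709 at 16 h, with a log2 ratio of 0.28 against the shared 0.55. Psmd5, a chaperone of the base, read 172, 94.8 and 195 at 4 h against 129, 91.9 and 62.6 at 16 h and had a change of 0.076 (SE 0.139, 95% interval -0.24 to 0.39, adjusted p = 0.981).

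Agreement between probes was measurable in the 22 genes with 2 or more detected probes. In 12 of them all changes had 1 sign, and in 10 both signs occurred. The median spread between the highest and the lowest change of a gene was 0.094. The spread exceeded 0.3 in 3 genes, Psmf1 (0.40), Psmb7 (0.35) and Psmd11 (0.32). The closest agreement was that of Psmb2 (0.0057) and Psme1 (0.0065). In 7 genes, 3 of them (Psmb2, Psmd11 and Psmf1) among the 22, a detected probe stood beside one that was not detected. Both immune genes with a second detected probe kept the sign, as did 3 of 3 ATPases with 2 detected probes. The sequences and target positions of the probes were not used here.

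**Figure D4:**
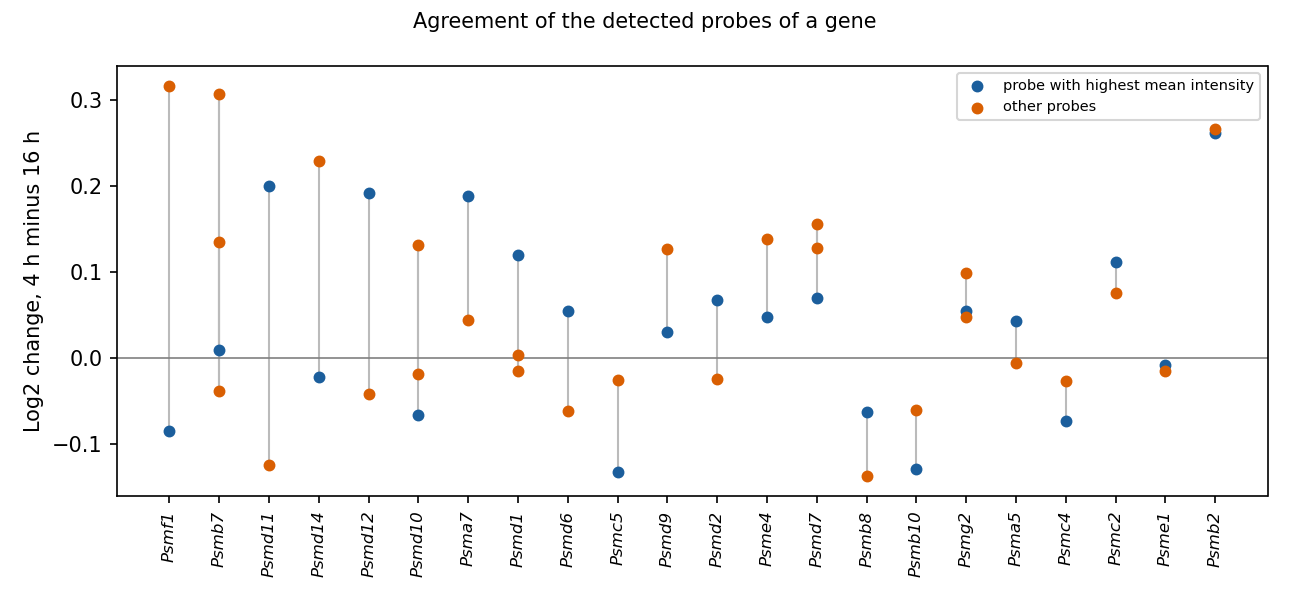
Log2 change (4 h minus 16 h, normalized) of every detected probe of the 22 member genes with 2 or more detected probes, joined by a line per gene and ordered by spread, with the representative probe in blue and the others in orange. Lines cross 0 in 10 genes, and Psmf1, Psmb7 and Psmd11 have spreads of 0.40, 0.35 and 0.32.

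Genes that work with the proteasome, outside the symbol pattern, were examined from lists by role, and limma called 0 in each. Of 9 assembly and associated factors with a probe, 8 were detected, with 6 changes above 0 and 2 below (median 0.13) and 1 unadjusted p under 0.05. The smallest p values were those of the maturation factor Pomp and the deubiquitinase Uchl5. Pomp had normalized values of 12.69, 12.82 and 12.60 at 4 h against 12.59, 12.51 and 12.48 at 16 h, without overlap, and a change of 0.18 (SE 0.0776, adjusted p = 0.919). Uchl5 had a change of 0.23 (SE 0.102, adjusted p = 0.919), with overlapping time points, and its 3 other detected probes gave 0.04, 0.0078 and 0.20. Of 13 ubiquitin and shuttle genes, 11 were detected (median 0.030, 7 above 0 and 4 below, 2 unadjusted p under 0.05), and the shuttle Rad23b had a change of 0.22 (SE 0.0898, adjusted p = 0.889), with overlapping time points and with 0.081 and 0.0016 at its other detected probes.

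Of 7 transcription factors and regulators of subunit genes, 5 were detected (median 0.0070, 3 above 0 and 2 below, 1 unadjusted p under 0.05). Nfe2l1, the factor that restores proteasome genes after inhibition, had a change of 0.007 (SE 0.113, adjusted p = 0.998), and Nfe2l2, above the limit on 4 arrays, had 0.13 (SE 0.0757, adjusted p = 0.936). Mafg, a small partner of both, had 4 h samples all below the 16 h samples after normalization, at 9.26, 9.26 and 8.92 at 4 h against 9.27, 9.87 and 9.84 at 16 h, and a change of -0.52 (SE 0.162, adjusted p = 0.725). Its deposited values overlapped, at 704, 559 and 529.9 at 4 h against 474, 783 and 609 at 16 h, and a second detected probe, under an older symbol, had overlapping time points and a change of -0.14. Of 10 interferon and antigen processing genes, 7 were detected (median -0.032, 3 above 0 and 4 below, 1 unadjusted p under 0.05). Tap2, the peptide transporter subunit, had a change of -0.30 (SE 0.111, adjusted p = 0.831) with the 4 h samples all lower after normalization, while its deposited values overlapped, at 88.7, 85.9 and 143 at 4 h against 103, 110.5 and 80.9 at 16 h. B2m, the light chain of class I molecules, had -0.085 (SE 0.0965, adjusted p = 0.966), and a second detected probe gave -0.088. Tap1, which lies between Psmb9 and Psmb8, was above the limit on 0 arrays.

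The 6 arrays also differed in 18S ribosomal RNA probes. Their mean log2 intensities were 8.57, 5.66 and 10.78 at 4 h against 8.82, 6.86 and 5.41 at 16 h. The arrays were separated at the middle of this range, with 4 h replicates 1 and 3 and 16 h replicate 1 on the bright side. This separation was drawn from graded values of these same arrays and was unbalanced between the time points. Its p-values are therefore descriptions only. With this separation as a term in limma beside the time point, 152 of all 45281 probes (0.336%) and 0 of the 83 member probes were called for it. Without adjustment, 14 of the 69 detected member probes had a p under 0.05 (20.3%, against 20% of all detected probes). The values with the smallest p were those of a probe of the chaperone Psmg2 (ILMN_1224609), with a log2 difference of -0.46 between the arrays with bright and dim 18S probes, and of Psmb2 (ILMN_2949632, 0.51) and Psmd2 (ILMN_2682945, 0.46). For the same Psmb2 probe, the change between the time points was 0.27 in the fit without the separation. That is a different fit from the one that gave 0.51. With the separation as a block, 0 member probes were called for the time point.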

How the data were processed

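mGLUTag RNA was measured on Illumina mouse BeadChips, 1 array per sample. The deposited table holds linear intensity values that the authors had background-subtracted and not normalized between arrays. Detection p-values, control probes and slides are not given in the sources used here. The methods name limma. Background was corrected again by normexp (offset 50) in limma 3.58.1 (R 4.3.3), followed by quantile normalization and log2 transformation, and all 45281 probes were fitted by time point with lmFit and eBayes. Two-sided p-values were Benjamini-Hochberg adjusted over all probes (threshold 0.05). The offset shrinks changes of dim probes, and quantile normalization removes shared changes. The noise limit was the 99th percentile of each array's below-zero values with sign turned. A probe above it on 3 or more arrays was called detected, and each gene was described by its representative probe, the one highest in mean normalized log2 intensity. Arrays carry no counts, so that their number sets the precision.

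The 83 member probes, classes and further lists were chosen with earlier results of these data known. Described with values on every array were the 3 defining genes, the catalytic pairs, Psme1 to Psme4, the members with the highest and the lowest change of each class, every called member, and every gene whose detected probes differed by over 0.3. Named from each further list of pathway genes were those with the 2 smallest p, some with their change only. One gene that this rule selects is not reported here. Psmb4, Psmd12, Psmc3, Psmc4 and the genes of the 18S comparison were named after their values had been seen. Alternatives were other background, normalization, filter, variance, weight, block and probe settings. Promoters came from RefSeq (GRCm38.p6). The genome build of the array is not given in the sources used here. The procedure was tested on simulated data, with independent noise and planted changes larger than that of any member. It does not show whether changes of the members' size could be found. Same-numbered samples correlated at 0.24, 0.17 and -0.47 (deviations from the time-point means), so that the numbers were not taken as pairs.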

Additional observations from a re-analysis of the deposited data

How the results depend on the processing

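No member probe was called with quantile normalization, under any other setting of background, filter, variance, weight or block tried, or with cyclic loess, linear scaling or an array left out. Calls of members as higher came from omitting normalization (22) and from median scaling (7), under which the median change of all detected probes was 0.36 and 0.27. Across all probes, calls higher and lower at 4 h were 19 and 10 without background correction, 2308 and 0 without normalization, 832 and 0 with median scaling, 0 and 2 with cyclic loess, 1 and 0 with trend and robust variance, and 0 and 0 with an offset of 16, either filter, or any array left out. With the replicate number as a block, 0 and 0 were called, and it changed no member's call. Adjusted p of the described probes ran from 0.0347 to 1 over the settings.

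Class medians (alpha, beta, immune, ATPase, non-ATPase, activators and inhibitor, chaperones, all members) were 0.52, 0.48, 0.36, 0.39, 0.50, 0.45, 0.45 and 0.46 without normalization and 0.43, 0.39, 0.27, 0.30, 0.41, 0.37, 0.36 and 0.37 with median scaling. With linear scaling, the alpha, beta, ATPase, activator and all-member medians were -0.016, -0.055, -0.089, -0.073 and -0.040, and the median detected probe was at -0.0096 (-0.0026 with cyclic loess). The ATPase median was -0.061 with the 18S separation as a block, and the activator median was 0.069 when probes of a gene were averaged.

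Changes that turned sign were, without normalization, Psmb5 (0.32), Psmb10 (0.36), Psmb8 (0.42), Psmb9 (0.058), Psmc5 (0.32), Psmd14 (0.46), Psme1 (0.45), Psme2 (0.31), Psmf1 (0.41), Psmg3 (0.26), Psmb7 ILMN_1233153 (0.43) and Psmd11 ILMN_1214057 (0.16). With median scaling they were 0.23 (Psmb5), 0.27 (Psmb10), 0.33 (Psmb8), 0.23 (Psmc5), 0.37 (Psmd14), 0.37 (Psme1), 0.22 (Psme2), 0.32 (Psmf1), 0.17 (Psmg3), 0.34 (Psmb7) and 0.076 (Psmd11). Relative to the shift of the median detected probe in both settings, Psmb5 (-0.035), Psmb9 (-0.30), Psmc5 (-0.037), Psme2 (-0.049), Psmg3 (-0.098) and Psmd11 ILMN_1214057 (-0.19) kept their sign, and the other 6 did not. On the deposited scale, however, these 6 had log2 ratios below the shared 0.55. They were 0.41 (Psmb10), 0.49 (Psmb8), 0.49 (Psmd14), 0.46 (Psme1), 0.40 (Psmf1) and 0.43 (Psmb7 ILMN_1233153). The offset shrinks changes of dim probes, and its part in the shift was not tested. Changes that turned sign with linear scaling were Psma2 (-0.12), Psmb6 (-0.027), Psmb7 ILMN_1240550 (-0.095) and Psmc2 (-0.040). With array weights Psmb7 ILMN_1240550 was -0.0020. With the 18S separation as a block they were Psmd14 (0.035), Psme1 (0.050), Psmf1 (0.0015) and Psmd5 (-0.046), and with averaged probes Psmd14 (0.10) and Psmf1 (0.069). The cause was not tested.

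With 1 array left out, sign turned in Psma2 (-0.068 to 0.12), Psmb7 ILMN_1240550 (-0.035 to 0.044) and ILMN_1233153 (-0.075 to 0.0098), Psmb10 (-0.31 to 0.0033), Psmb8 (-0.20 to 0.064), Psmd14 (-0.10 to 0.11), Psme1 (-0.067 to 0.066), Psme4 (-0.027 to 0.16), Psmf1 (-0.19 to 0.028) and Psmd5 (-0.030 to 0.21). Class medians ranged from 0.057 to 0.15 (alpha), 0.011 to 0.13 (beta), -0.27 to -0.074 (immune), -0.060 to -0.010 (ATPase), -0.010 to 0.14 (non-ATPase), -0.067 to 0.028 (activators), -0.074 to 0.052 (chaperones) and -0.0050 to 0.062 (all members). The non-ATPase and all-member medians were below 0 only without 4 h replicate 2. Psmb6 (0.011 to 0.15), Psmc2 (0.035 to 0.17), Psmd11 (0.021 to 0.34), Psmd11 ILMN_1214057 (-0.23 to -0.024), Psma7 (0.071 to 0.33), Psmb2 (0.14 to 0.45), Psmb7 ILMN_2836147 (0.0010 to 0.25), Psmd1 (0.078 to 0.18), Psme2 (-0.35 to -0.052), Psme3 (0.14 to 0.27), Psmg3 (-0.28 to -0.13) and Psmc5 (-0.21 to -0.035) kept their direction but moved by over 1.5 times. Psmb9 (-0.27 to -0.20), Psmb5 (-0.24 to -0.12), Psmb7 ILMN_1221340 (0.23 to 0.39) and Psmf1 ILMN_3094023 (0.22 to 0.38) kept their direction and moved by less. With 3 arrays per time point, changes under about 0.24 could not be resolved in a typical member.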

Other observations

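Psmg1, a chaperone of the alpha ring, was present under an older symbol, outside the pattern. It was detected on 6 arrays, with a log2 change of -0.016 (SE 0.0659). A further probe of Psma8, under an older symbol, was above the noise limit on 0 arrays. Psmc3ip, the recombination factor with a matching symbol, had a change of 0.013 (SE 0.135).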
